A study of Mus musculus with 4 samples.

Results

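Retinoic acid synthesis and signaling was followed through 9 genes in embryonic mouse lung. They were the synthesis enzymes *Aldh1a1*, *Aldh1a2* and *Aldh1a3*, the binding proteins *Crabp1* and *Crabp2*, the receptors *Rara*, *Rarb* and *Rarg*, and the breakdown enzyme *Cyp26b1*. The genes were chosen by name, all 9 were measured among 19938 genes, and each had 1 probe set annotated to that symbol alone. Total RNA came from whole lungs of C57BL/6 embryos at embryonic day 18.5, the saccular stage. Affymetrix arrays were hybridised with 2 samples of wild-type *Hmga2*+/+ lung (WT) and 2 of lung lacking *Hmga2* in all cells (*Hmga2*-/-, KO), 1 array per sample. The labels name no further allele and no treatment, and the mutant line was obtained as *Hmga2*+/- mice. Both WT titles carry one group name, so that these arrays come from separate embryos rests on their label as biological replicates. *Hmga2* encodes a chromatin protein that binds AT-rich DNA. Values are RMA values on the log2 scale, and differences are always KO minus WT.

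Retinoic acid is made from vitamin A in steps. Retinol is taken up and oxidised to retinaldehyde, which the ALDH1A enzymes turn irreversibly into retinoic acid. CRABP proteins carry the acid in the cytoplasm, and CYP26 enzymes break it down. In the nucleus it binds a retinoic acid receptor (RAR), which pairs with a retinoid X receptor (RXR) on direct repeats of a short half-site in target genes. In lung the pathway is needed for the first buds to form, must fall for distal airways to branch and differentiate, and is used again when alveoli are built.

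The receptor pair binds direct repeats of a half-site, with 1, 2 or 5 bases between the copies. The half-sites searched for were AGGTCA, then the variant that reads GGGTCA, then another variant written AGTTCA, and last the variant with letters GGTTCA. These repeats were searched for on both strands in windows from 250 bases before to 50 bases after the start of each gene (RefSeq, GRCm38.p6). Windows were given for 7 of the 9 genes, 12 windows in all, and 1 of them held a repeat, that of *Rarb*. A repeat of spacing 5 was found in 32 of all 32851 windows (0.0974%), and one of any of the 3 spacings in 193 (0.588%). The stretches before the start are shown for *Rarb* (chr14:16575477-16575726, minus strand), for *Crabp1* (chr9:54764498-54764747, plus strand), which had the largest difference of the 9 genes, and for *Cyp26a1* (chr19:37697558-37697807, plus strand), a breakdown enzyme well known to be induced by retinoic acid. All run 5′ to 3′ toward the start of the gene, and capitals mark a repeat of spacing 5.
Rarb: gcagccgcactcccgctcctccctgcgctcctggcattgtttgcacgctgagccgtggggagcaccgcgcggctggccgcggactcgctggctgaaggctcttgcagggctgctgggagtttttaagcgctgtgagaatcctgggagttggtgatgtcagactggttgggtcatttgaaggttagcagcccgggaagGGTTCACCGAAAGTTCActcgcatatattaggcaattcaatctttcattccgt
Crabp1: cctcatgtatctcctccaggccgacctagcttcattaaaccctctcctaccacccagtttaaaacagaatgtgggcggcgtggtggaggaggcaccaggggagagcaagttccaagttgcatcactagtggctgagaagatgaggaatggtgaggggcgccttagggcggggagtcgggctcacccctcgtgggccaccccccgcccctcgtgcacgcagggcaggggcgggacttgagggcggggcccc
Cyp26a1: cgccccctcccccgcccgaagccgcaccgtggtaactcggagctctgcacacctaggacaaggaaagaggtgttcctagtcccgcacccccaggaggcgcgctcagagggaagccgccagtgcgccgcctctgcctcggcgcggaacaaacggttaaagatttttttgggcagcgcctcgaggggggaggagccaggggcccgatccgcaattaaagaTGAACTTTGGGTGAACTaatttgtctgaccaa
The repeat of *Rarb* lies from base -53 to base -37 counted from the start (chr14:16575513-16575529). That of *Cyp26a1* lies from -32 to -16 on the opposite strand (chr19:37697776-37697792). No repeat of these letters lay in the window of *Crabp1*. The GC content of the members' windows ran from 43.3% for a start of *Aldh1a1* to 78.0% for *Aldh1a2*, around a median of 52.7% over all windows. A match is a description of the letters and no evidence of binding.

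Among the 9 genes, *Crabp1* and *Rarb* were higher and *Aldh1a1* was lower on both KO arrays than on both WT arrays, by 1.66-fold, 1.53-fold and 1.28-fold. *Crabp2* was higher on both as well, by 1.10-fold. *Aldh1a3*, *Rara* and *Rarg* were nearly level across the 4 arrays, and *Aldh1a2* and *Cyp26b1* differed by less than their own spread. In limma's test adjusted over all 19938 genes 0 of the 9 passed, where 0.782% of all genes did (0.0802% higher and 0.702% lower in KO). An unadjusted p under 0.05 was reached by 2 genes that were higher, *Crabp1* and *Rarb*, and 1 that was lower, *Aldh1a1*, where 14.5% of all genes had such a p (5.88% higher and 8.58% lower). A difference of 1.2-fold, the limit the study used, was exceeded upward by *Crabp1*, *Rarb* and *Aldh1a2* and downward by *Aldh1a1*. That made 4 of 9, against 30.5% of all genes (13.4% higher and 17.1% lower). *Aldh1a2* exceeded the limit only narrowly, at 1.2006-fold, and its groups overlap. Groups did not overlap for 4 of the 9 genes, 3 above and 1 below, against 49.4% of all genes (17.6% above and 31.8% below), which places the count near the background. With 2 arrays against 2, an exact permutation test cannot give a two-sided p below 0.333.

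Before the genes are taken in turn, some facts on the arrays apply to all of them. The probe set of *Hmga2* itself did not fall in the arrays labelled KO, and the difference was 0.051 (standard error, SE, of 0.16, limma adjusted p = 0.892). No source used here places this probe set inside or outside the deletion, so directions hold for the arrays as labelled. Transcripts that mark lung epithelium were bright on all arrays, with *Sftpc*, the surfactant protein of alveolar type II cells, between 13.97 and 14.13. Of all 19938 genes, 8206 were higher and 11732 lower in KO, and counts of listed genes are read against that. WT replicate 1 stood apart, correlating with the KO arrays at 0.976 and 0.976 over all probe sets, where WT replicate 2 reached 0.994 and 0.992. The WT arrays correlated at 0.985 with each other, so WT replicate 2 was nearer to both KO arrays than to WT replicate 1. WT replicate 1 was the lowest of the 4 arrays for 6 of the 9 genes, against 37.0% of all genes. Values without it are given beside differences of retinoid genes that shrank by over 1.5 times or changed sign.

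**Figure D1:**
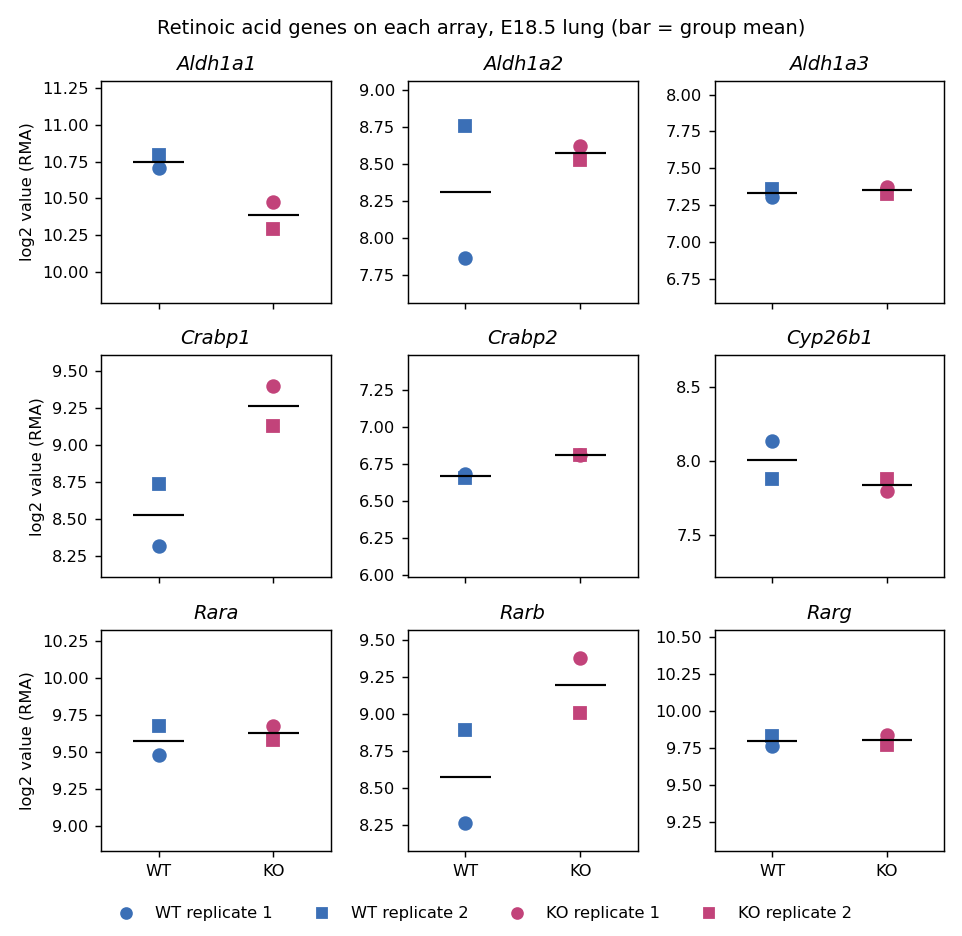
Each panel shows 1 gene, with the log2 RMA value of each array on the vertical axis (all axes span 1.5 log2 units), WT arrays in blue, KO arrays in magenta, circles for replicate 1, squares for replicate 2 and a bar at the group mean. *Crabp1*, *Rarb*, *Crabp2* and *Aldh1a1* have groups that do not overlap, while *Aldh1a3* and *Rarg* hardly vary.

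Of the synthesis enzymes, *Aldh1a1* was lower in KO lung, *Aldh1a2* rested on 1 array and *Aldh1a3* was flat. *Aldh1a1*, which oxidises retinaldehyde and other aldehydes, had values of 10.70 and 10.79 on the WT arrays and 10.48 and 10.30 on the KO arrays. Both KO arrays were thus the lower ones. The difference was -0.36 (SE 0.14, 95% interval -0.69 to -0.034, limma adjusted p = 0.307). It kept its sign in every alternative run, from -0.45 to -0.27. In bulk tissue, fewer cells of a type and less RNA per cell cannot be told apart. By their medians, the lists of alveolar type I, alveolar type II and airway markers were lower too. The list of distal progenitors was higher, as given with the array profiles. All 5 markers of alveolar type I cells were lower in KO, and the list's mean log2 value was 11.50 and 11.46 in WT against 10.25 and 10.13 in KO. Of 6 airway markers 5 were lower, with list means of 10.88 and 10.96 against 10.33 and 10.15. *Scgb1a1* had by far the widest difference of the 6, -2.69, and the median of the list was -0.38. The part of these cells in the difference of *Aldh1a1* was not tested.

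*Aldh1a2* encodes the main retinoic acid-forming enzyme of the embryo, which lung mesothelium and mesenchyme are known to make. Its values were 7.87 and 8.76 in WT and 8.63 and 8.53 in KO. WT replicate 1 was low by itself, and WT replicate 2 was the highest of the 4 arrays. The difference of 0.26 (SE 0.28, 95% interval -0.41 to 0.93, limma adjusted p = 0.665) turned to -0.18 without WT replicate 1 and grew to 0.71 without WT replicate 2. No direction can be given for this gene. Among 7 markers of mesothelium, 3 were higher and 4 lower in KO, with list means of 8.95 and 8.89 in WT and 8.72 and 8.48 in KO. Of the 7, *Msln*, the mesothelial surface protein mesothelin, was the 1 gene that passed the test, and it fell, from 11.57 and 11.22 in WT to 10.13 and 9.83 in KO (-1.42, SE 0.18, limma adjusted p = 0.0303).

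*Aldh1a3*, the third enzyme of the family, had 7.31 and 7.36 in WT and 7.37 and 7.33 in KO. The 4 values span 0.065, and 1.12% of all genes had a smaller span, with a median span over all genes of 0.364. Its difference was 0.017 (SE 0.12, 95% interval -0.28 to 0.32, limma adjusted p = 0.960), and -0.0095 without WT replicate 1. The values do not separate the groups, and the interval leaves room for a change of modest size in either direction.

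Both binding proteins were higher on the KO arrays. *Crabp1*, which holds retinoic acid in the cytoplasm and is linked to its breakdown, had 8.32 and 8.74 in WT and 9.39 and 9.12 in KO. The lower KO array lay above the higher WT array, and the WT arrays differed by 0.42 between themselves. The difference of 0.73 was the largest of the 9 genes in either direction (SE 0.19, 95% interval 0.29 to 1.18, limma adjusted p = 0.157). By its unadjusted p it stood at position 849 of all genes. The difference was 0.52 without WT replicate 1, where it passed the test (limma adjusted p = 0.0124) together with 8.22% of all genes, and 0.94 without WT replicate 2. It was 0.60 without KO replicate 1 and 0.87 without KO replicate 2. Without a WT array its group holds a lone array, and each named gene got the same SE of 0.155. Such a p thus holds no spread within WT and none of the gene's own.

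*Crabp2* delivers retinoic acid to the receptors in the nucleus. It had 6.69 and 6.66 in WT and 6.81 and 6.81 in KO. Both KO arrays were above both WT arrays by a narrow margin, and the gene is among the dimmest 40% on these arrays. Its difference of 0.14 (SE 0.12, 95% interval -0.16 to 0.44, limma adjusted p = 0.611) ran from 0.12 to 0.24 over the alternatives. The intervals of *Crabp1* and *Crabp2* overlap, and the difference between these genes was not tested.

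Of the receptors, *Rarb* was higher on the KO arrays, and *Rara* and *Rarg* had differences near 0. *Rarb*, whose own promoter holds the repeat shown above and which is a standard transcriptional target of retinoic acid, had 8.26 and 8.89 in WT and 9.38 and 9.01 in KO. The groups did not overlap, though WT replicate 2 lay close under KO replicate 2, and the WT arrays differed by 0.63. The difference was 0.62 (SE 0.24, 95% interval 0.042 to 1.19, limma adjusted p = 0.320). Without WT replicate 1 it shrank to 0.30, and without WT replicate 2 it was 0.93. Leaving out a KO array gave 0.43 or 0.80. Of the 9 genes *Rarb* had the widest span over the 4 arrays, 1.12, and 95.9% of all genes had a smaller one.

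*Rara*, the receptor present in nearly all tissues, had 9.48 and 9.67 in WT and 9.67 and 9.58 in KO. *Rarg*, the receptor best known from skin and cartilage, had 9.76 and 9.83 in WT and 9.84 and 9.77 in KO. For both, the KO values fell within or next to the WT values. The difference was 0.051 (SE 0.14, 95% interval -0.28 to 0.38, limma adjusted p = 0.874) for *Rara* and 0.0062 (SE 0.13, 95% interval -0.30 to 0.31, limma adjusted p = 0.985) for *Rarg*. Both turned slightly negative without WT replicate 1 (-0.044 and -0.029) and with cyclic loess, to -0.0065 and -0.052. The span of *Rarg* over the arrays was 0.074, with 1.58% of all genes below it.

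*Cyp26b1*, a cytochrome P450 that breaks down retinoic acid, had 8.14 and 7.88 in WT and 7.80 and 7.88 in KO. WT replicate 1 was the highest and the other 3 arrays lay close together. The difference of -0.17 (SE 0.14, 95% interval -0.52 to 0.18, limma adjusted p = 0.601) shrank to -0.038 without WT replicate 1 and was -0.30 without WT replicate 2.

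**Figure D2:**
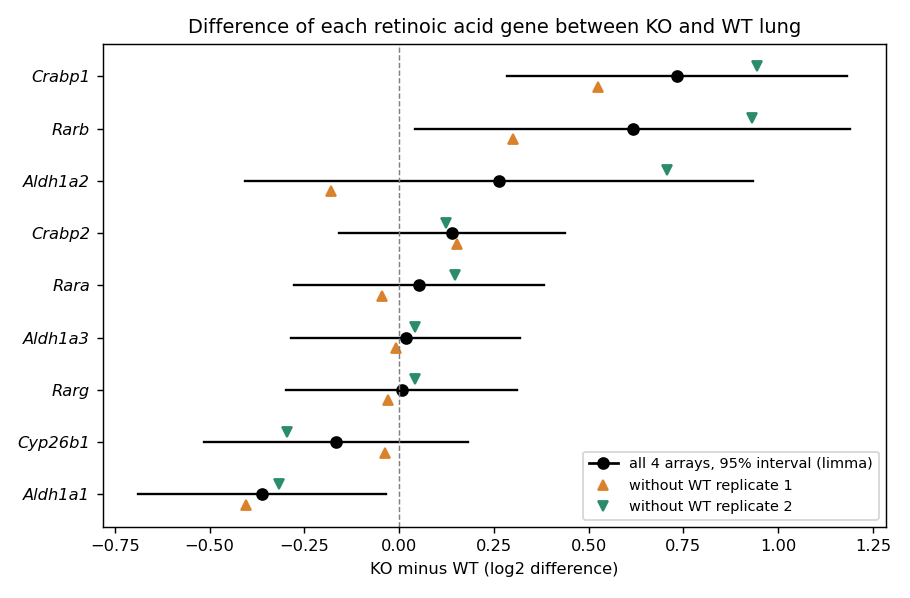
Black points give the KO minus WT difference of each gene on the log2 scale with its 95% interval from limma over all 4 arrays, and triangles give the difference without WT replicate 1 (pointing up) or without WT replicate 2 (pointing down). *Crabp1* and *Rarb* lie highest with 0.73 and 0.62, and *Aldh1a2* changes sign between the triangles.

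*Crabp1*, *Rarb* and *Aldh1a2* shared a low value on WT replicate 1, where their values minus each gene's own mean over the arrays were -0.58, -0.62 and -0.58. Marker lists of dividing cells, of distal progenitors and of smooth muscle were lowest there as well. For dividing cells all 5 measured markers were higher in KO, and the list's mean log2 value was 10.23 and 10.91 in WT and 11.53 and 11.43 in KO. The 4 markers of distal progenitors, which are epithelial cells of the growing tips, were higher too by a median of 0.63, with list means of 10.31 and 10.76 against 11.16 and 11.08. The 5 heart muscle markers were also higher in KO, with list means of 9.10 and 8.77 in WT and 9.98 and 9.73 in KO, but WT replicate 1 was not the low one there. Markers of mesenchyme and lipofibroblasts were 3 higher and 3 lower, with list means between 11.32 and 11.35 on the 4 arrays. Both KO arrays lay above both WT arrays for 17.6% of all genes and for 2 of the 5 smooth muscle markers. All 5 were higher, by a median of 0.18. Their list means were 10.31 and 10.56 in WT and 10.80 and 10.60 in KO. Lower in KO were 6 of 6 markers of alveolar type II cells, 5 of 6 of endothelium and 5 of 5 of macrophages and monocytes, by medians of -0.68, -0.26 and -0.38. The part of these cells in the differences of *Crabp1* and *Rarb* was not tested. The genes nearest to *Crabp1* over the 4 arrays, by Euclidean distance between values centred on each gene's mean, were *Sel1l3* (0.011), *Kcne1l* (0.0225) and *Popdc2* (0.0305), with differences of 0.74, 0.73 and 0.76. With 4 arrays a close match of this kind says little about a gene.

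**Figure D3:**
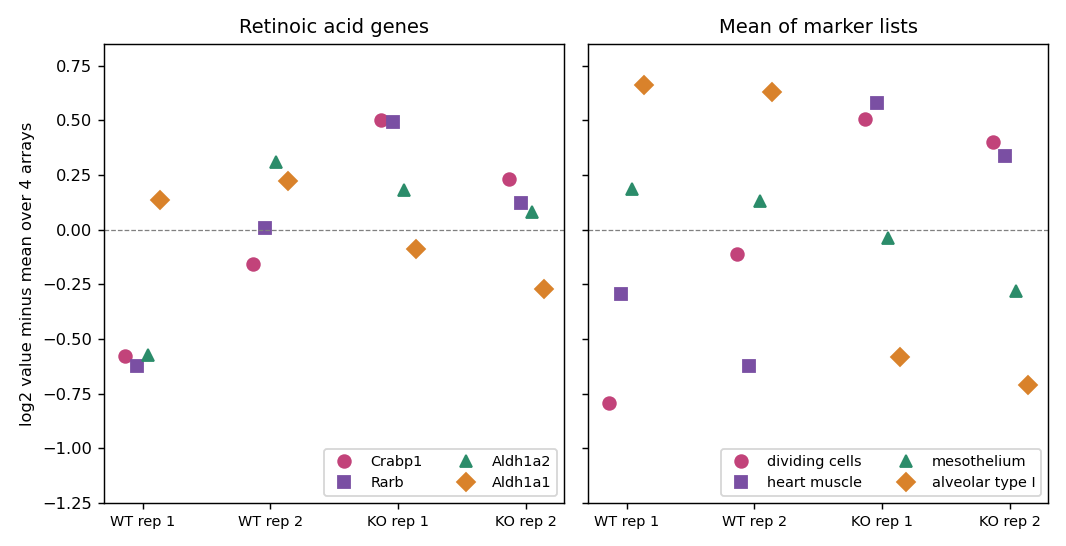
Log2 values minus the mean over the 4 arrays are shown for 4 retinoic acid genes (left) and for the mean of 4 marker lists (right), 1 column of symbols per array. *Crabp1*, *Rarb* and *Aldh1a2* are lowest on WT replicate 1, as is the list of dividing cells, whereas the alveolar type I list is higher on both WT arrays than on both KO arrays.

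Around these genes, 90 other genes of the retinoid pathway were measured, of 97 listed by role. In KO 43 were higher and 47 lower, where 8206 of all 19938 genes were higher and 11732 lower. The median difference was -0.0049 against -0.051 over all genes. The test over all genes was passed by 1 of them, which fell (1.11%, against 0.702% of all genes that fell), and by 0 that rose. At an unadjusted p under 0.05 there were 5 higher (5.56%) and 10 lower (11.1%), against 5.88% and 8.58% of all genes. The gene that fell was *Fabp5*, a fatty acid-binding protein that can carry retinoic acid to the nuclear receptor PPARD instead of to the RARs. On the probe set used its values were 11.75 and 11.86 in WT and 10.52 and 10.41 in KO, a difference of -1.34 (SE 0.13, limma adjusted p = 0.0172) or 2.53-fold. The other probe set of *Fabp5* gave 11.52 and 11.65 against 10.30 and 10.16, a difference of -1.35. Whether either probe set also reads a related copy of the gene was not tested. The call ended without KO replicate 1 (-1.40, limma adjusted p = 0.490) or KO replicate 2 (-1.28, limma adjusted p = 0.763), where 0.00502% and 0% of all genes passed. For *Ppard* itself, named for its role after its values were seen, the value was -0.17 (SE 0.14, limma adjusted p = 0.572).

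Of the 10 genes that store vitamin A as ester or release it, 9 were lower and 1 was higher in KO, with a median difference of -0.16 (-0.067 without KO replicate 2 and -0.25 without KO replicate 1), and 0 passed. *Lpl*, the lipase that clears lipoproteins and can free retinol from its esters, had 10.10 and 9.90 in WT and 9.14 and 8.86 in KO. Its difference of -1.0 (SE 0.16, limma adjusted p = 0.0577) passed with the replicate block, with median centring, with cyclic loess and without the dimmest genes (adjusted p from 0.0141 to 0.0478 from limma). It did not pass with trend and robust (limma adjusted p = 0.0578), with the mean of probe sets (0.0602), or without KO replicate 1 (0.525) or KO replicate 2 (0.936). *Ces1d*, a carboxylesterase, had -0.57 (SE 0.16, limma adjusted p = 0.177). Among 6 genes of uptake and transport, *Lrp2*, the endocytic receptor megalin, had the widest difference, -1.16 (SE 0.46, limma adjusted p = 0.330). It rested on WT replicate 1, whose value of 8.69 stood over 7.09, 6.71 and 6.75 on the other arrays, and was -0.37 without it. Of these 6 genes 2 were higher and 4 lower, and 0 passed. *Rbp4*, the retinol carrier of blood, had 0.38 (SE 0.19, limma adjusted p = 0.407), and *Stra6*, its receptor, 0.094 (SE 0.13, limma adjusted p = 0.742). Without WT replicate 1 these were 0.17 and 0.038.

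Genes that interconvert retinol and retinaldehyde were balanced, with 9 higher and 9 lower of 18, a median of -0.0062 and 0 that passed. *Dhrs3*, which reduces retinaldehyde back to retinol, had 10.61 and 10.99 in WT and 10.51 and 10.43 in KO, a difference of -0.33 (SE 0.16, limma adjusted p = 0.410). *Dhrs4*, another reductase, had 0.45 (SE 0.21, limma adjusted p = 0.389), and 0.16 without WT replicate 1. *Rdh10*, the retinol dehydrogenase that feeds the ALDH1A enzymes in the embryo and was named here for that role after its values were seen, had 0.14 (SE 0.15, limma adjusted p = 0.677), and 0.0017 without WT replicate 1. Of the other 3 breakdown enzymes 1 was higher and 2 were lower, and 0 passed. *Cyp26a1*, whose promoter holds the second repeat shown above, had 5.70 and 6.05 in WT and 5.94 and 5.83 in KO, a difference of 0.011 (SE 0.16, limma adjusted p = 0.981) that was -0.16 without WT replicate 1. *Cyp26c1* had -0.10 (-0.063 without that array) and *Cyp2s1* -0.076.

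Of 9 RXRs and other receptors or carriers to them, *Fabp5* included, 5 were higher and 4 lower, with a median of 0.13 (0.022 without WT replicate 1), and *Fabp5* alone passed. *Rora*, an orphan nuclear receptor, had -0.58 (SE 0.17, limma adjusted p = 0.197). *Rxra* and *Rxrb*, named likewise, had differences of 0.16 (SE 0.15, limma adjusted p = 0.622) and 0.29 (SE 0.17, limma adjusted p = 0.475), which shrank to 0.022 and 0.072 without WT replicate 1. Of 12 coactivators and corepressors 5 were higher and 7 lower, with a median of -0.14 (-0.0078 without WT replicate 1) and 0 that passed, and the widest was *Kat2b*, a histone acetyltransferase, with -0.49 (SE 0.13, limma adjusted p = 0.182). Of 32 genes with a known response to retinoic acid 20 were higher and 12 lower, with a median of 0.083 and 0 that passed. The median was -0.0025 without WT replicate 1 and 0.018 without KO replicate 1. In those runs the median of the whole gene set was lower, -0.058 and -0.086, against -0.051 with every array. The list thus stayed above that median in both runs, by less without WT replicate 1 than without KO replicate 1. With cyclic loess the list median was 0.047 against -0.0022 over all genes. Without the dimmest 40% of genes it was 0.094 against 0.034. At an unadjusted p under 0.05 were 4 higher (12.5%) and 3 lower (9.38%), against 5.88% and 8.58% of all genes. *Hoxb5*, a homeobox gene of lung mesenchyme, had 7.72 and 8.73 in WT and 9.35 and 9.30 in KO. Its difference of 1.10 (SE 0.31, limma adjusted p = 0.186) was 0.59 without WT replicate 1, and WT replicate 1 was its lowest array. *Tgfb2*, a growth factor, had 0.55 (SE 0.21, limma adjusted p = 0.323), and 0.25 without WT replicate 1. *Tgm2*, the tissue transglutaminase, and *Eln*, elastin, went the other way with -0.50 (SE 0.12, limma adjusted p = 0.149) and -0.47 (SE 0.13, limma adjusted p = 0.170).

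**Figure D4:**
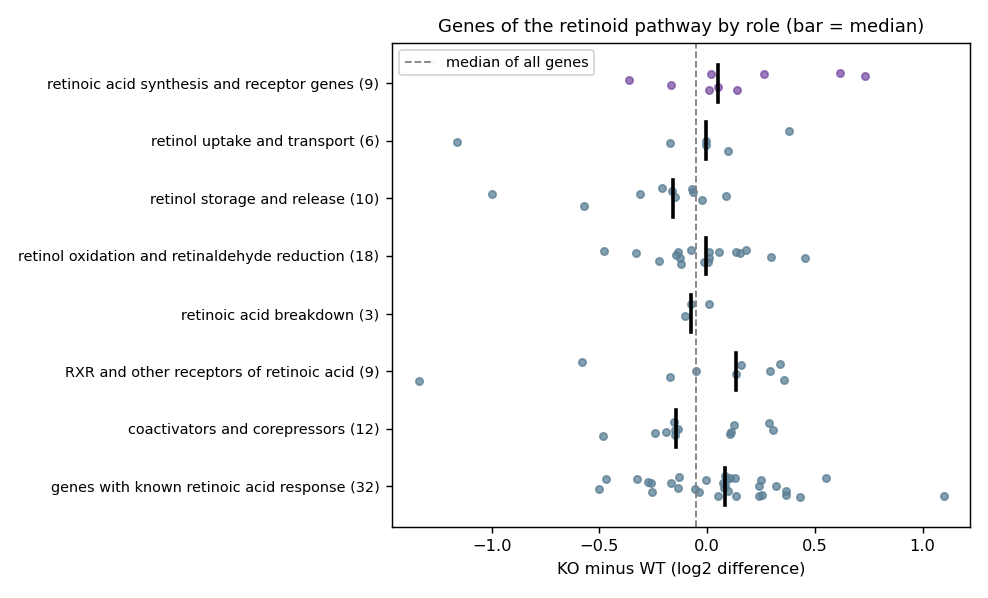
Each point is a measured gene and its KO minus WT difference on the log2 scale, grouped by role in the retinoid pathway (number of genes in parentheses), with a bar at the median of the list and a dashed line at the median of all genes, -0.051. The medians lie between -0.16 and 0.13, and single genes such as *Fabp5*, *Lrp2* and *Lpl* lie far to the left.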

How the data were processed

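Gene expression was measured on 1-colour Affymetrix arrays, 1 per sample. For the deposited log2 values the authors ran RMA (Affymetrix Expression Console per the labels, versions not given). RMA corrects background, quantile-normalizes arrays and summarises probe sets. The values carry no detection call and were not normalized again. Of 30177 probe sets, the platform annotation gave a single symbol to 21789, several to 1621 and none usable here to 6767. Where a gene had several, its brightest probe set was used.

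Groups came from the labels. Genes (19938) were fitted by lmFit and eBayes of limma 3.58.1 under R 4.3.3 (prior degrees of freedom 4.42, residual 2), with 95% intervals, and p values were adjusted after Benjamini and Hochberg at 0.05. Such p values set each difference against a variance that joins the gene's spread between these few arrays with that of all genes. The code was tested on simulated data. Python 3.11.15 and matplotlib 3.10.9 drew the figures.

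Members and lists were chosen with earlier results of these data known. The naming rule took *Hmga2*, the 9 members, up to 4 genes per list with the widest difference, all genes of lists of 5 or fewer, listed genes that passed, and the 3 genes nearest to the member with the widest difference. The text gives a part of these. Some listed genes are not reported here. Alternatives covered a replicate block, median centring, cyclic loess, a filter on the dimmest 40% of genes (which removes *Aldh1a3* and *Crabp2*), the mean of probe sets, trend and robust, a threshold of 0.10 and each array left out. Levels of different genes were not ranked, since probe sets differ in brightness, and proteins were not analysed here.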

Additional observations from a re-analysis of the deposited data

How the results depend on the processing

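Among the 9 members 0 passed in each alternative that kept all arrays, except a crossed replicate block, chosen after seeing the data, where 1 passed (*Crabp1*, with 512 of all genes). With an array left out, differences ran from 0.52 to 0.94 for *Crabp1*, 0.30 to 0.93 for *Rarb* and -0.18 to 0.71 for *Aldh1a2*. The members past 1.2-fold numbered 3 to 5. Those with groups that do not overlap numbered 3 to 5 with all arrays and 4 to 9 with an array left out, where 69.2% to 85.4% of all genes did not overlap (9 of 9 and 85.4% without WT replicate 2). Leaving out an array makes 1 group a lone array. Without a KO array, that group is assumed to vary like WT. Without a WT array, each named gene got the same SE, 0.155, so a p from such a run holds no spread of the gene's own.

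Over all genes the count of 156 (16 higher, 140 lower) became 602 with the replicate block (241 and 361), 294 with median centring (73 and 221), 350 with cyclic loess (80 and 270), 301 without the dimmest 40% (74 and 227), 457 at a threshold of 0.10, and 0 to 6292 with an array left out. In the pathway lists 1 gene passed, 2 with median centring, cyclic loess or the dim filter (*Fabp5* and *Lpl*), and 0 to 29 with an array left out. With the replicate block *Hoxb5* passed too (limma adjusted p = 0.0270). Same-numbered arrays deviated against each other (correlation -0.238 over genes), and nothing says that the numbers pair samples. With 2 arrays per group, the crossed value of 0.238 is the same number with its sign turned.

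Signs turned with cyclic loess for *Rara* (-0.0065), *Rarg* (-0.052) and *Hmga2* (-0.0058). With an array left out they turned for *Aldh1a2* (-0.18 to 0.71), *Aldh1a3* (-0.0095 to 0.043), *Rara* (-0.044 to 0.15), *Rarg* (-0.029 to 0.041), *Hmga2* (-0.076 to 0.18), *Rdh11* (-0.039 to 0.63), *Cyp2s1* (-0.28 to 0.13) and *Cyp26a1* (-0.16 to 0.18). With the half-site AGGTCA alone, 0 member windows held a repeat, since the repeat of *Rarb* is made of GGTTCA and AGTTCA. The cause of the sign changes was not tested.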
